A study of Mus musculus with 6 samples.

Results

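The tripartite motif genes, Trim genes for short, encode a large family of proteins that begin with a RING finger, one or a pair of B-boxes and a coiled coil, and Pml, the promyelocytic leukemia gene, is a member of the family under another name (its other symbol is Trim19). The members were taken as every gene of the deposited expression table whose symbol is Trim followed by a number and at most 1 letter from a to d, together with Pml. This gave 69 genes of the 53797 in the table. The cells were MLO-Y4, an established mouse line derived from long bone of a mouse that carried a viral large T antigen under the osteocalcin promoter, used as a model of osteocytes, the cells embedded in bone matrix that sense mechanical load. The study compared 3 cultures that received LIPUS (low-intensity pulsed ultrasound, a mechanical stimulus used to speed fracture healing) with 3 control cultures that did not, in order to find the genes through which osteocytes answer the stimulus. LIPUS was given once for 20 min at 1.5 MHz and 30 mW/cm2 in pulsed mode, and RNA was taken 30 min after it.

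Both groups were the same cell line in the same medium, α-MEM with fetal bovine serum, and no genetic change between them is stated. Treated and control wells shared a plate, where the transducers under the control wells were unplugged. In the study's own comparison of libraries, a control culture stood apart from the other two, and ultrasound reaching control wells was raised there as possible. Its part in the pooled Control values was not tested, since a single library's values cannot be separated from them. The table gives 1 FPKM (fragments per kilobase of exon, scaled to the number of mapped reads) for LIPUS and 1 for Control, each pooled by the authors over the libraries of the group. All levels given here are these pooled values, so there is no spread between cultures, no n behind a value and no test, and differences are described by size alone. Depth per library cannot be read from FPKM. The log2 ratio is that of LIPUS over Control after adding 1 to each FPKM, which understates the change of genes near an FPKM of 1, while a fold is the plain ratio of both FPKM. A gene was called expressed with an FPKM of at least 1 in either group, and past the fold where FPKM + 1 differed by 1.5-fold or more. In RNA of whole cultures, fewer cells that make a transcript and less of it per cell cannot be told apart.

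Of the osteocyte and osteoblast markers, Spp1 had an FPKM of 4158 with LIPUS and 4514 in Control, Col1a1, Pdpn and Gja1 were expressed and within the fold, Phex was under the minimum, and Sost, Mepe and Fgf23, markers of mature osteocytes, were at 0 in both groups. Alpl (190 with LIPUS, 293 in Control, -0.63) and Runx2 (14.8 and 24.4, -0.69) were lower past the fold as defined above, and Dmp1 (7.65 and 3.04, 1.10) was higher. The part of such a shift in the values below was not tested. Of 8 leukocyte markers, 5 were at 0 in both groups, among them Ptprc, Adgre1, Itgam and Cd3e, and Csf1r was at 0.233 with LIPUS and 0.236 in Control. Cd68 was at 1.72 with LIPUS and 5.32 in Control, and Lyz2 at 0.189 and 2.01, so the summed level of these last 2 was 1.91 with LIPUS against 7.33 in Control. All 7 housekeeping genes looked at were above 0.

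Most proteins of the family are E3 ubiquitin ligases: the RING finger binds an E2 enzyme charged with ubiquitin, or for some members a relative of it, and promotes its direct transfer to a substrate, which the C-terminal domain often chooses. Many members with a PRY-SPRY domain at that end act in the defence against viruses, either by binding viral proteins or by tuning the signals that lead to interferon, and a number of them are themselves switched on by interferon. Pml builds the PML nuclear bodies, small spheres in the nucleus that gather SUMO-modified proteins, and its gene is induced by interferon too. Other branches have little to do with immunity: the TIF1 members silence chromatin, those with NHL repeats bind RNA or sort cargo in neurons, and those with a COS box sit on microtubules or in the muscle sarcomere.

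With LIPUS, 7 members were lower past the fold, namely Trim21, Trim30a, Trim12c, Trim14, Trim30d, Pml and Trim34a, and 1 was higher, Trim7. With 5 added to each FPKM in place of 1, 4 were lower and 0 higher, beside 1.87% and 1.85% of all expressed genes. Trim14, Trim30d, Trim34a and Trim7 were then within the fold. All 7 belonged to the 16 members listed as interferon-linked, a list drawn up with earlier results of these data known. Trim21 and Trim30a were lower by more than 2-fold on the FPKM + 1 scale, and the abundant member Trim28 was at the same level in both groups to within 1%. Among all 11999 expressed genes, 6.79% were lower past the fold and 6.7% were higher, while 7 of the 37 expressed members were lower and 1 was higher. The median log2 ratio was -0.13 over the 37 expressed members and 0.00 over all expressed genes. Below 0 lay 25 of the 37, and 12 lay above.

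Of the 69 members, 37 were expressed, 11 had a level above 0 but under the minimum, and 21 were at 0 in both groups. Over the whole table, 37321 of 53797 genes were at 0 in both groups. The members at 0 were Trim9, Trim10, Trim15, Trim30b, Trim30c, Trim31, Trim38, Trim40, Trim42, Trim43a, Trim43b, Trim50, Trim52, Trim55, Trim58, Trim60, Trim61, Trim63, Trim67, Trim75 and Trim80. Under the minimum were Trim5, Trim6, Trim17, Trim29, Trim36, Trim43c, Trim62, Trim66, Trim69, Trim71 and Trim72. The summed FPKM of the expressed members was 599 with LIPUS and 673 in Control.

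**Figure D1:**
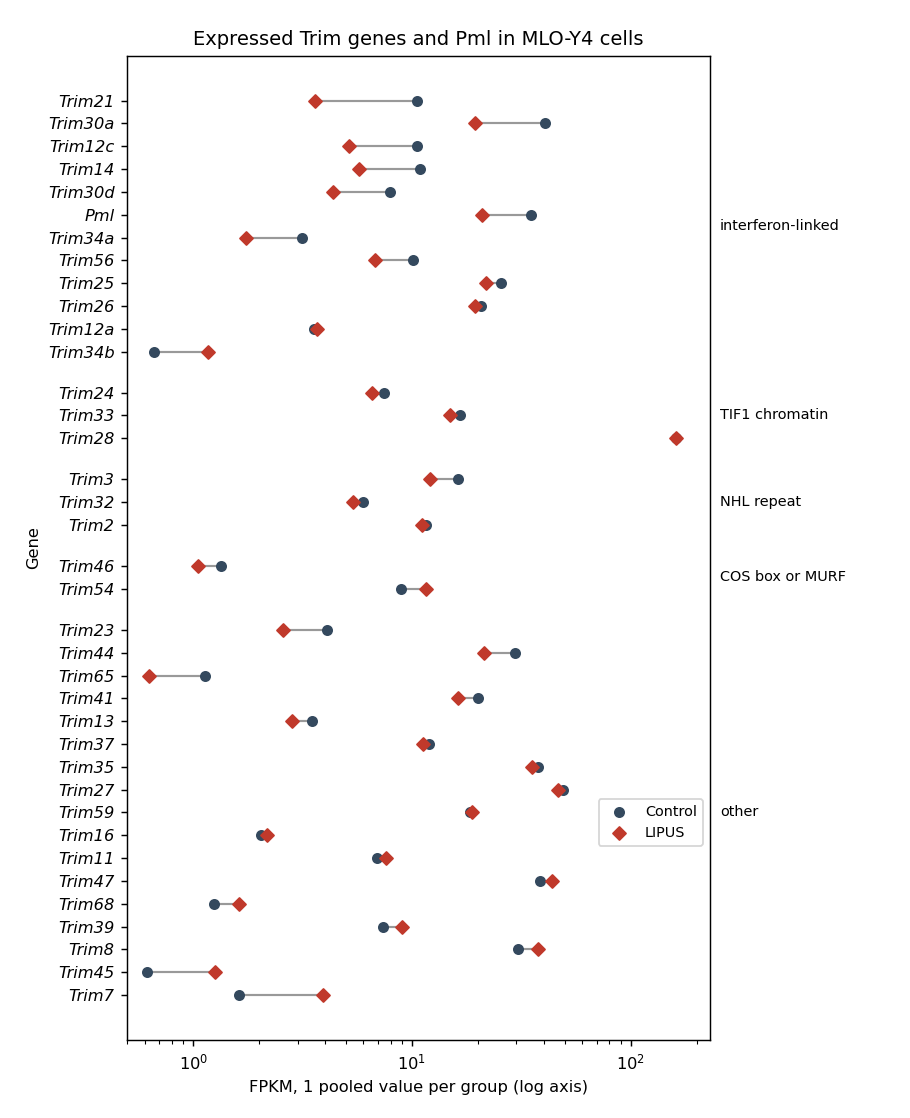
The FPKM (log axis, 1 pooled value per group) of the 37 expressed members, with Control as circles and LIPUS as diamonds joined by a line, sorted by log2 ratio within each group of members. The longest line is that of Trim21 (3.59 with LIPUS, 10.5 in Control), and Trim28 (161 in both groups) shows almost none. Lines stand for the plain fold, so that Trim65 (0.625 and 1.14) has as long a line as Trim34a (1.74 and 3.15) but lies within the fold once 1 is added.

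Short stretches of sequence at the start sites are shown first, since a pattern known from interferon-induced genes was found there in some members. Many genes that interferon induces carry an interferon-stimulated response element, whose core is a pair of GAAA blocks set apart by 2 bases. Promoter windows from RefSeq (GRCm38.p6), of 250 bases before the start site and 50 from it, were searched for GAAA, any 2 bases, GAAA on both strands. Windows were found for 54 of the 69 members, 29 of them expressed, and Trim14 was not among them. The pair was found in 9 of the 54, namely the 7 interferon-linked members below and, outside that list, Trim2 and Trim5, the stretch of Trim5 being identical to that of Trim12a. The interferon-linked members Pml, Trim56, Trim25, Trim34b, Trim6, Trim30b, Trim30c and Trim38 did not hold it in the windows searched. The stretches below have 30 bases each, run 5′ to 3′ on the strand of the gene, and carry the matched blocks in capitals (TTTC where the match is on the opposite strand).

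Trim21 (chr7:102565447-102565476, minus strand): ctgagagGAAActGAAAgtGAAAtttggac
Trim30a (chr7:104465210-104465239, minus strand): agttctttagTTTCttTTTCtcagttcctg
Trim30d (chr7:104507871-104507900, minus strand): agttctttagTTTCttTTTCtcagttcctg
Trim12c (chr7:104353359-104353388, minus strand): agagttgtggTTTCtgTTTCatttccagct
Trim12a (chr7:104315466-104315495, minus strand): agagttgtggTTTCtgTTTCatttccagag
Trim34a (chr7:104244457-104244486, plus strand): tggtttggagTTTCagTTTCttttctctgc
Trim26 (chr17:36836979-36837008, plus strand): cttccgaTTTCacTTTCctTTTCtcgggcc

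Trim21 and Trim26 each held 3 blocks in a row, which makes 2 overlapping matches. In Trim21 the blocks ran from 14 to 29 bases after the start site, and in Trim26 they stood before it, at positions -160 to -145. The printed stretches of Trim30a and Trim30d were identical. A further start site of Trim30a also held the pair, at chr7:104446104-104446133 and with partly other letters around it. Over the 250 bases before the start sites of the printed stretches these neighbours were identical at 227 of 255 columns of their alignment (89.0%). The letters of Trim12a and Trim12c are much alike, but the blocks lay 11 to 20 bases after the RefSeq start site in Trim12a and at positions -29 to -20 in Trim12c, before the start. Such matches are letters in a window and say nothing about whether a factor was bound in these cells.

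The lowest ratios of the family were those of interferon-linked members. Of the 16 listed, Trim30b, Trim30c and Trim38 were at 0, Trim6 was under the minimum at 0.175 with LIPUS and 0.688 in Control, and 12 were expressed. Lower past the fold were 7 of these 12 and none was higher, beside 6.79% lower and 6.7% higher of all expressed genes, with a median log2 ratio of -0.66 and a summed FPKM of 114 with LIPUS against 179 in Control. The 25 expressed members outside the list had a median of -0.08, and their sums were 486 and 493. Since the list was drawn up with earlier results of these data known, this split is a description and no separate evidence.

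Trim21, which encodes a cytosolic receptor for antibodies that marks antibody-coated viruses for the proteasome, had an FPKM of 3.59 with LIPUS and 10.5 in Control. It was 2.93-fold lower, at a log2 ratio of -1.33, and 0.925% of all expressed genes had a ratio as low. The gene lies on chromosome 7 (chr7:102557921-102565486, minus strand, GRCm38), apart from the Trim cluster of that chromosome, and shared no stretch of 100 bases with another gene's transcripts.

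Trim30a encodes a mouse protein known to restrain signalling from Toll-like receptors to NF-κB. Its FPKM was 19.3 with LIPUS and 40.6 in Control, a 2.1-fold lower level and a log2 ratio of -1.03. In Control it was the most abundant of the interferon-linked members, and with LIPUS it stood below Trim25, Pml and Trim26. Trim30d, its neighbour, had an FPKM of 4.37 with LIPUS and 7.94 in Control, 1.82-fold lower (-0.74). Trim30a and Trim30d shared 4.41% and 4.57% of their 100-base stretches with each other, and how reads were divided between them was not tested.

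Trim12c, a mouse relative of the retrovirus restriction factor TRIM5, was at 5.15 with LIPUS and 10.6 in Control, 2.06-fold lower (-0.92). It shared 7.02% of its 100-base stretches with Trim5 and 1.01% with Trim12a. Trim12a, a relative in the same cluster, was at 3.68 with LIPUS and 3.56 in Control (0.04), so these genes, both with the GAAA pair, differed in ratio. Trim34a was at 1.74 with LIPUS and 3.15 in Control, 1.81-fold lower (-0.60), whereas its copy Trim34b was at 1.17 with LIPUS and 0.664 in Control (0.38, within the fold). The split between Trim34a and Trim34b is uncertain, since 21% of the 100-base stretches of Trim34a and 30.5% of those of Trim34b were found in the other, and since exons of the antisense gene Gm47248, at 0 with LIPUS and 1.55 in Control, covered 23.5% of those of Trim34a.

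Trim14, whose product sits on mitochondria and supports the antiviral adaptor MAVS, was at 5.75 with LIPUS and 10.9 in Control, 1.9-fold lower (-0.82). It lies on chromosome 4 (chr4:46493781-46536141, minus strand). Genes on the opposite strand, namely Gm16731, Gm22247 and Nans, together covered 38% of its exonic bases. Nans, a sialic acid synthase, was at 51.2 with LIPUS and 63.1 in Control (-0.30). The libraries were stranded, but the sources used here do not say whether reads were counted by strand, so a share of Nans reads within the value of Trim14 was not tested.

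The remaining interferon-linked members lay within the fold. Trim56, a ligase known for antiviral activity, was at 6.80 with LIPUS and 10.1 in Control (1.49-fold lower, -0.51). Among expressed members Trim56 was the nearest of those that did not reach the fold, and Trim34a the nearest of those past it. Trim25, the ligase known for activating the RNA sensor RIG-I, was at 21.7 and 25.6 (-0.23). Trim26 was at 19.5 and 20.8 (-0.09), although its promoter window held the 3 blocks shown above. Log2 ratios over this list ran from -1.33 for Trim21 to 0.38 for Trim34b, whose FPKM was 1.76-fold higher with LIPUS.

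**Figure D2:**
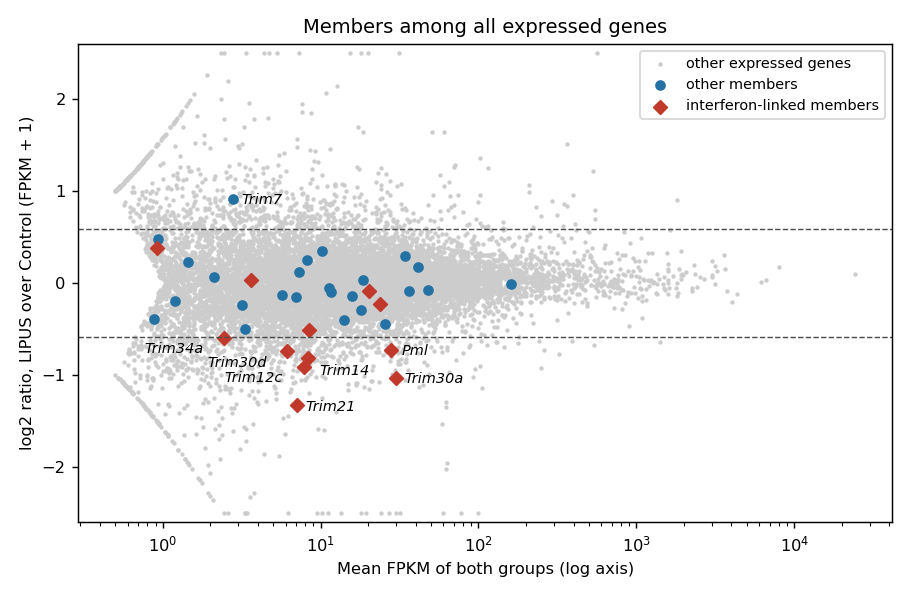
The log2 ratio of LIPUS over Control (FPKM + 1) against the mean FPKM of both groups (log axis) for all 11999 expressed genes, with the members in colour and dashed lines at 1.5-fold in either direction; genes beyond the ends of the vertical axis are drawn at its edge. Pml and Trim30a stand below the cloud at a level where few genes pass the line, and Trim34a lies on it among many other genes of low level.

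How often a gene passed the fold varied with its level, so the members were also set against genes of like level. Between an FPKM of 20 and 50 (the higher of both groups), 3.34% of 2603 genes were lower past the fold, and 2 of the 10 members there were, Pml and Trim30a. Between 5 and 20 this was so for 6.63% of 4268 genes and for 4 of 15 members, Trim12c, Trim14, Trim21 and Trim30d. Between 1 and 5, where 12.9% of 3025 genes were lower and 13.3% higher, 1 of 11 members was lower (Trim34a) and 1 higher (Trim7). At 50 and above only Trim28 was found, and it was within the fold.

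A run of 10 members occupies 289 kb of chromosome 7 (chr7:104218793-104507849), in the order Trim6, Trim34a, Trim5, Trim12a, Trim34b, Trim12c, Trim30b, Trim30c, Trim30a and Trim30d. GENCODE M21 lists 18 genes there, and the others are pseudogenes, small nuclear RNAs and antisense transcripts. The levels of these neighbours ranged widely. Trim30b and Trim30c, which lie between Trim12c and Trim30a, were at 0 in both groups, while Trim30a was the highest of the run. Trim5 was at 0.125 with LIPUS and 0.289 in Control, under the minimum. Of the 6 expressed members of the run, Trim34a, Trim12c, Trim30a and Trim30d were lower past the fold, beside 6.79% of all expressed genes, and Trim12a and Trim34b were not.

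**Figure D3:**
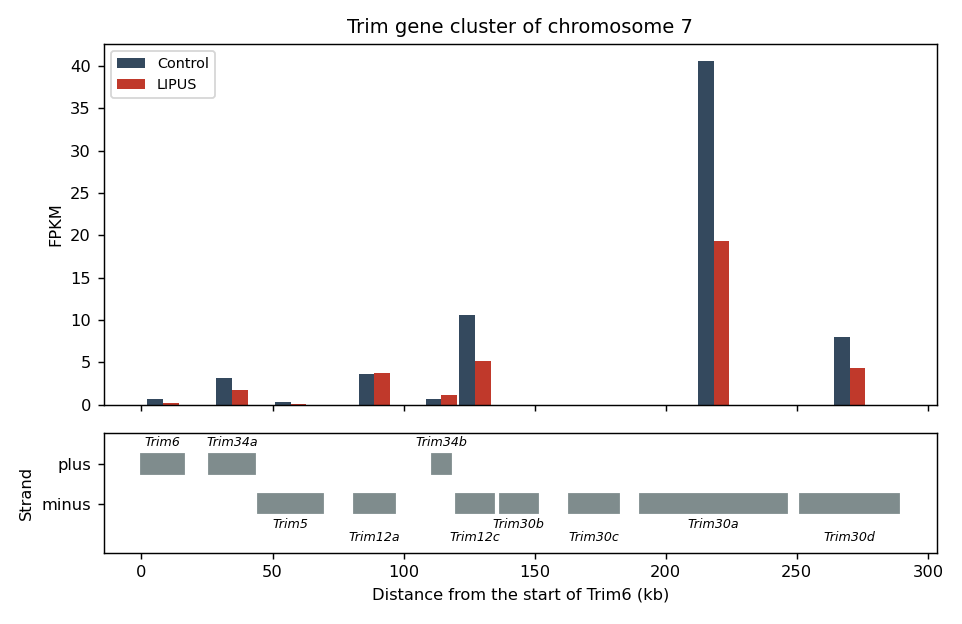
Upper panel, FPKM of each of the 10 members of the chromosome 7 cluster in Control and LIPUS, drawn at the place of the gene; lower panel, the extent and strand of the genes, in kb from the start of Trim6. Trim30a (40.6 in Control, 19.3 with LIPUS) towers over its neighbours, of which Trim30b and Trim30c have no bar.

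Pml had an FPKM of 20.8 with LIPUS and 35.1 in Control, 1.69-fold lower at a log2 ratio of -0.73, and 4.43% of expressed genes had a ratio as low. The gene lies on chromosome 9 (chr9:58218076-58249786, minus strand), far from the Trim cluster, and shared no 100-base stretch with other genes. No spaced GAAA pair was found in its promoter window. Pml was the second most abundant interferon-linked member in Control.

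Partners of Pml in the nuclear bodies were looked at as a list of 11 genes, all expressed. Lower past the fold were 2 of the 11, Sp100 and Daxx, and none was higher. Among all expressed genes, 6.79% were lower and 6.7% higher. Of genes at the level of Daxx, between an FPKM of 20 and 50, 3.34% were lower. Of those at 50 and above, like Sp100, 2.62% were lower. The median log2 ratio of the 11 partners was -0.01. Sp100, a permanent resident of the bodies that interferon induces as well, was at 39.3 with LIPUS and 66.0 in Control, 1.68-fold lower (-0.73). Daxx, a histone chaperone held in the bodies by Pml, was at 13.8 with LIPUS and 22.3 in Control, 1.61-fold lower (-0.65). Blm, a DNA helicase found there, was at 25.4 with LIPUS and 17.1 in Control (0.55, within the fold). Sumo2, a modifier that helps the bodies to assemble, was at 314 with LIPUS and 302 in Control (0.06).

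A list of 16 further interferon-stimulated genes, none of them a Trim gene, passed the minimum FPKM in at least 1 group. Lower past the fold were 12 of the 16, beside 6.79% of all expressed genes. All 16 had a ratio below 0, as did 6004 of the 11999 expressed genes, and the median was -0.84. Mx1, among the 12, was at 0.251 with LIPUS and 1.23 in Control and so passed the minimum only through Control, where it was the higher. Stat2, which carries the interferon signal to the nucleus, was at 12.6 with LIPUS and 23.2 in Control (1.85-fold lower, -0.83). Irf9, its DNA-binding partner, was at 23.1 with LIPUS and 24.7 in Control (-0.09). Zbp1, a sensor of Z-form nucleic acid, was at 27.8 with LIPUS and 61.2 in Control (2.2-fold lower, -1.11), and Ddx58, the gene of RIG-I, at 31.7 and 58.6 (1.85-fold lower, -0.86). The lowest ratio of the interferon-linked Trim members, -1.33 for Trim21, thus lay between those of Ifit1 (-1.35) and Zbp1. Of the leukocyte markers above, Cd68 and Lyz2 were also lower with LIPUS while the defining marker Ptprc was at 0 in both groups, and their part in these values, those of the Trim members included, was not tested.

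RING ligases work with charged E2 enzymes. Of 10 E2 genes, all expressed, none passed the fold in either direction, and the median log2 ratio was -0.06. Of all expressed genes 6.79% were lower and 6.7% higher, so 0 of 10 is near the share of all genes. Ube2n, which with Ube2v1 builds the lysine-63 chains of antiviral signalling, was at 236 with LIPUS and 240 in Control, and Ube2d3, the most abundant of the list, at 437 and 441.

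**Figure D4:**
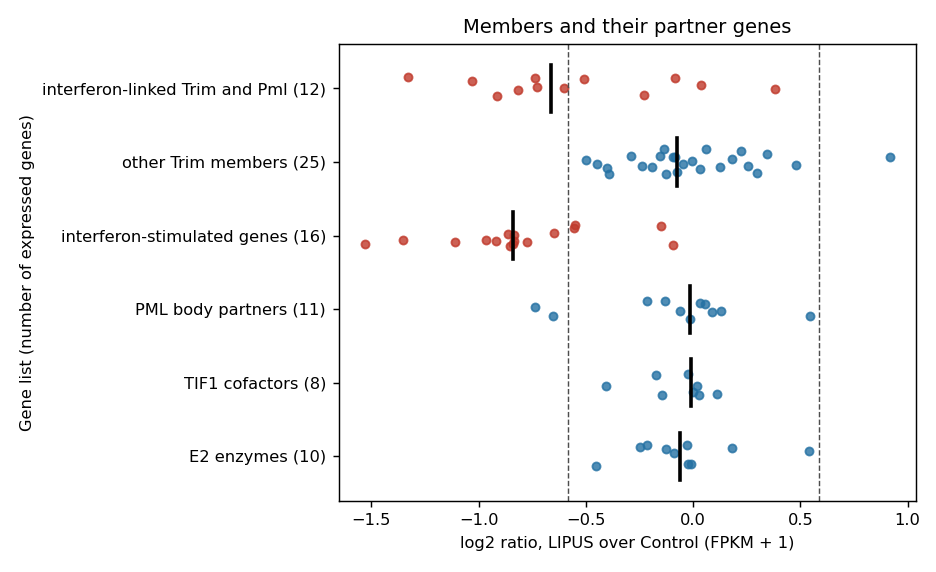
The log2 ratio of LIPUS over Control (FPKM + 1) of each expressed gene in the interferon-linked members, the other members and 4 lists of partner genes, with a bar at the median of each list and dashed lines at 1.5-fold. The interferon-linked members (median -0.66) and the interferon-stimulated genes (-0.84) lie to the left, and the medians of the other lists lie between -0.08 and -0.01.

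The TIF1 members repress chromatin together with HP1 proteins, histone deacetylases and the methyltransferase Setdb1. Trim28, also called KAP1 or TIF1-beta, the corepressor of the KRAB zinc finger proteins, had an FPKM of 161 in both groups (160.7 with LIPUS, 161.4 in Control; -0.01). It was the most abundant member and stood at place 567 of all genes. Trim33 was at 15.0 with LIPUS and 16.5 in Control (-0.14), and Trim24 at 6.59 and 7.46 (-0.16). Trim66, otherwise found mostly in testis, was under the minimum. Of 8 cofactor genes none passed the fold, which is near the 6.79% lower and 6.7% higher of all expressed genes, and the median was -0.01, with Chd3, a chromatin remodeller, lowest at 28.8 with LIPUS and 38.5 in Control (-0.41).

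All 3 expressed members with NHL repeats lay within the fold. Of all expressed genes 6.79% were lower and 6.7% higher, so 0 of 3 is near the share of all genes. Trim3 was at 12 with LIPUS and 16.2 in Control (1.35-fold lower, -0.40), Trim2 at 11.1 and 11.6 (-0.05), and Trim32, mutated in a limb-girdle muscular dystrophy, at 5.40 and 5.98 (-0.13). The stem cell factor Trim71 was at 0 with LIPUS and 0.0205 in Control. One of the start sites of Trim2 had a spaced GAAA pair, so that this member shares the letters but not the lower level.

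Of 7 members with a COS box or of the MURF kind, Trim9, Trim55, Trim63 and Trim67 were at 0 and Trim36 was under the minimum. Trim54, a sarcomere protein of muscle also called MURF3, was at 11.6 with LIPUS and 8.93 in Control (1.30-fold higher, 0.34), and Trim46, which orders microtubules in axons, at 1.05 and 1.34 (-0.19). Of the 4 neuron markers, Rbfox3 and Snap25 were at 0 in both groups, Syp was under the minimum (0.180 with LIPUS, 0.0998 in Control), and Tubb3 was at 1.02 with LIPUS and 0.687 in Control. Muscle markers were sparse: Myod1, Myog, Ckm and Tnnt3 were at 0 in both groups, and Acta1 was at 5.62 with LIPUS and 1.97 in Control. The antisense gene Gm15469 covered 26.6% of the exonic bases of Trim54 and was at 1.09 with LIPUS and 1.08 in Control.

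The other 38 members comprised 14 at 0, 7 under the minimum and 17 expressed. Of these 17, none was lower past the fold and 1 was higher, near the shares of all expressed genes (6.79% and 6.7%), and their median was 0.03 with a range from -0.50 to 0.92. Trim7, which binds glycogenin, the primer of glycogen synthesis, was at 3.93 with LIPUS and 1.61 in Control, 2.44-fold higher (0.92). It lies on chromosome 11 (chr11:48826140-48852209, plus strand), where genes on the opposite strand covered 8.31% of its exonic bases. At its level 13.3% of all genes were higher past the fold. The nearest member that did not reach the fold in this direction was Trim45, at 1.26 with LIPUS and 0.617 in Control (0.48).

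Among the abundant members of this remainder, Trim27, a ligase of endosomal recycling, was at 46.3 with LIPUS and 48.9 in Control (-0.08), Trim47 at 43.9 and 38.6 (0.18), and Trim35 at 35.4 and 37.6 (-0.09). Trim47 and its neighbour Trim65 lie on 1 strand and overlapped at 8.23% of the exonic bases of Trim47. Trim8, known to bind the cytokine inhibitor Socs1, was at 37.6 with LIPUS and 30.4 in Control (0.30). Trim44, which lacks a RING finger and is related to deubiquitinating enzymes, was at 21.4 with LIPUS and 29.5 in Control (1.38-fold lower, -0.45), and Trim59 at 18.8 and 18.4 (0.03). The lowest ratio of the remainder was that of Trim23, a ligase that carries a GTPase domain of the ARF kind, at 2.58 with LIPUS and 4.07 in Control (-0.50). Relatives without a Trim symbol were like these: Mid1 was at 39.1 and 43.2 (-0.14), Mid2 at 2.21 and 3.35 (-0.44), and Mefv at 0.

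Set against the promoter pattern, 8 expressed members held the spaced GAAA pair, namely Trim21, Trim30a, Trim12c, Trim30d, Trim34a, Trim26, Trim2 and Trim12a. Of these 8, 5 were lower past the fold, with a median log2 ratio of -0.67 and a range from -1.33 to 0.04. Of 21 expressed members whose window held no pair, 1 was lower (Pml) and 1 higher (Trim7), with a median of -0.10 and a range from -0.73 to 0.92. The ranges overlapped. These 8 genes are not independent, since 5 of them are neighbours in the chromosome 7 cluster with related sequence. Of all 27025 genes with a promoter window, 3.99% held the pair. Of the 336 expressed genes with it, the 8 members included, 12.8% were lower past the fold and 7.74% higher. Of the 8519 expressed genes without it, 5.16% were lower, and the share higher was not looked at. The median log2 ratio was -0.05 over the expressed genes with the pair and 0.00 over those without. A second pattern, TTCNNNGAA, which resembles the gamma-activated site of interferon-induced genes and reads the same on both strands, was present in 9.55% of genes and in 6 members, of which 2, Trim45 and Trim46, were expressed and neither was past the fold.

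**Figure D5:**
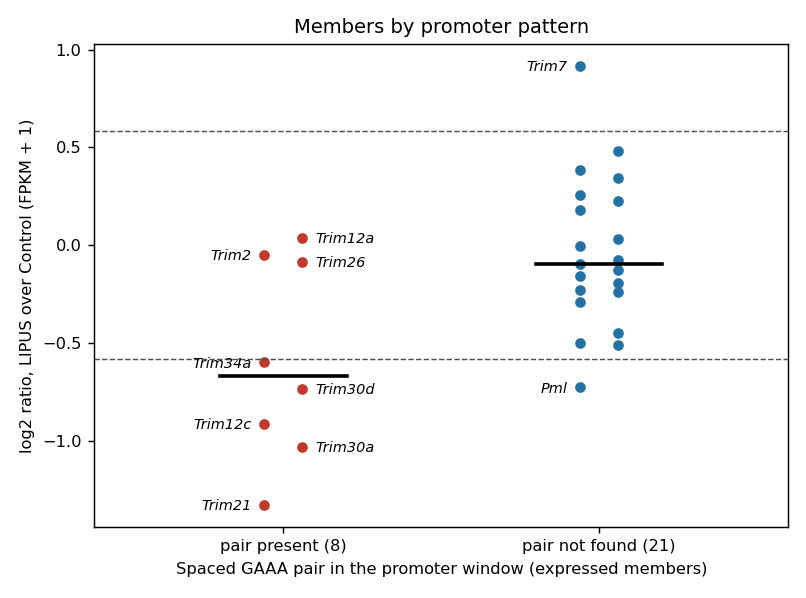
The log2 ratio of LIPUS over Control (FPKM + 1) of expressed members whose promoter window holds the spaced GAAA pair (8) and of those whose window does not (21), with bars at the medians (-0.67 and -0.10) and dashed lines at 1.5-fold. Trim26, Trim2 and Trim12a hold the pair and lie near 0, and Pml lies below the lower line without it.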

How the data were processed

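RNA of 3 LIPUS and 3 Control cultures of MLO-Y4 cells was sequenced as stranded, paired-end 100-base libraries. Per the submitters' processing notes, the authors trimmed reads with Trimmomatic 0.36 and aligned them to GRCm38 with TopHat2 2.1.0 and Bowtie2 2.2.6.0, and FPKM came from the Cufflinks suite with Ensembl transcripts. The authors deposited 1 FPKM per group and gene in the layout of a Cuffdiff comparison, pooled over the libraries of the group. With 1 value per group, no SD, depth, interval or test could be given. The authors' own fold changes, test statistics, p-values and q-values in the table were not used. No row had a failed status.

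The log2 ratio was taken after adding a pseudocount of 1, with a minimum FPKM of 1 and a fold of 1.5. In the partner and marker lists, a symbol on several rows was read from the row with the higher mean FPKM. The promoter comparison over expressed genes used the first expressed row of such a symbol. Counts over all genes kept every row. Each sample's group came from its title, and each column's group from the names that the table itself gives. The members and gene lists were chosen with earlier results of these data known. Members named are those past the fold, those nearest to it, the 10 most abundant, all expressed members of the interferon-linked, TIF1, NHL and COS box groups, and the 6 most abundant of the remainder. Trim23, the relatives of Trim genes and members at 0 or under the minimum were named beside these. From each partner list up to 6 genes were named.

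Positions and shared 100-base stretches were computed from GENCODE M21, in which all 69 members were found by identifier. Promoter windows came from RefSeq. Python 3.11.15 with numpy 2.4.6, pandas 2.3.3, Biopython 1.88 and matplotlib 3.10.9 was used, and the steps were tested on simulated data. Alternatives were pseudocounts of 0.1 and 5, a minimum FPKM of 5 or none, equal column totals, centring on the median, and folds of 2 and of a log2 ratio of 0.32.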

Additional observations from a re-analysis of the deposited data

How the results depend on the processing

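The members lower past the fold numbered 7, and the same 7 genes were found without a minimum FPKM, with equal column totals and after centring on the median. A minimum FPKM of 5 left 6 of 26 expressed members, all but Trim34a, beside 4.74% of 8974 genes. A pseudocount of 0.1 gave 9 by adding Trim23 and Trim65, beside 9.26% of all expressed genes. The number was 4 with a pseudocount of 5 (Pml, Trim12c, Trim21 and Trim30a), beside 1.87% of all expressed genes. With the fold lowered to a log2 ratio of 0.32 it was 12, beside 16.3%. At 2-fold it was 2 (Trim21 and Trim30a), beside 2.08%. The single member higher past the fold, Trim7, was joined by Trim34b and Trim45 with a pseudocount of 0.1. That made 3 members, beside 8.98% of all expressed genes. With the lowered fold 4 were higher, beside 15.8% of all expressed genes. Neither count stands above the share of all genes. None (0) was higher with a pseudocount of 5, with a minimum FPKM of 5, or at 2-fold. The shares of expressed genes higher at these settings were 1.85%, 4.47% and 2.16%, in that order. The share of all expressed genes that was lower went with these settings, from 16.3% with the lowered fold to 1.87% with a pseudocount of 5. With equal column totals it was 7.63% lower and 5.98% higher. Without a minimum FPKM, 6.46% of 16476 genes were lower and 6.26% higher. The median log2 ratio of the expressed members was -0.13 and lay between -0.17 (equal column totals) and -0.08 (a pseudocount of 5). No member called past the fold had its ratio reversed. No paired analysis was possible because the table holds 1 pooled value per group, and for the same reason no culture could be left out. With a pseudocount of 5, Trim14 (-0.56), Trim30d (-0.47), Trim34a (-0.27) and Trim7 (0.43) were within the fold. Trim34b and Trim45 passed the minimum FPKM only through LIPUS and Trim65 only through Control, in each case the group where the gene was higher. A larger pseudocount pulls low genes towards 0 by construction.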
